A study of Mus musculus with 6 samples.

Results

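The genes described here make cholesterol and fatty acids or respond to sterols, together with the SREBP system that controls them. They were given as a list of symbols, with no threshold on a measured value, and all 32 were found by an exact match of the symbol among 27763 gene rows. The samples were splenic natural killer (NK) cells of wild type C57BL/6 mice aged 6 weeks, whose polyadenylated RNA was sequenced in bulk. By its title the study concerns an immature NK subset that resides in the spleen and the part of the transcription factor T-bet in its maturation. The groups are cNK and DN NK, with 3 libraries each, and all share strain, age, tissue and genotype. The labels spell out neither group name nor the surface markers used to separate the cells, nor whether each library stands for its own animal. The p-values therefore measure the spread between these libraries, which may be technical.

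Cholesterol is built from acetyl-CoA, first through mevalonate to farnesyl diphosphate and then through squalene and lanosterol. The SREBP transcription factors (products of Srebf1 and Srebf2) are held in the endoplasmic reticulum by INSIG proteins when sterols are plentiful. When sterols fall, the escort protein SCAP carries them to the Golgi, where they are cleaved and released to the nucleus. SREBP-2 is known mainly for sterol genes and SREBP-1 for fatty acid genes. The liver X receptors (LXRs) respond to oxysterols and raise sterol export. In lymphocytes this system is known to supply membrane for growth, and in NK cells it has been tied to cytokine-driven metabolism.

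The promoters below are shown because their genes lie at different points of this system and differed in direction between the groups. Insig1 encodes a sterol-regulated retention protein and Fasn encodes fatty acid synthase, and both were higher in DN NK. Hmgcs1 encodes the synthase that feeds the mevalonate route and did not pass the test. Ebp and Nsdhl encode late sterol enzymes and were lower. The sequences are those of RefSeq on GRCm38.p6, 5′ to 3′ on the gene's strand, ending before both the RefSeq start and the gene span in the deposited table. Capitals mark 3 motifs searched on both strands with 0 mismatches. The first is the core of the SREBP site, TCACNCCAC. The second is the site of the factor NF-Y, CCAAT, which reads ATTGG on the other strand. The third is the E-box, CACGTG.
Insig1, chr5:28071162-28071362, plus strand: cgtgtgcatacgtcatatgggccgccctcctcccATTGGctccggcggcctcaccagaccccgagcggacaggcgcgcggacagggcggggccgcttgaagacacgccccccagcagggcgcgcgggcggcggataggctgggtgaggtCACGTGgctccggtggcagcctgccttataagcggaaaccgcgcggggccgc
Fasn, chr11:120824548-120824797, minus strand: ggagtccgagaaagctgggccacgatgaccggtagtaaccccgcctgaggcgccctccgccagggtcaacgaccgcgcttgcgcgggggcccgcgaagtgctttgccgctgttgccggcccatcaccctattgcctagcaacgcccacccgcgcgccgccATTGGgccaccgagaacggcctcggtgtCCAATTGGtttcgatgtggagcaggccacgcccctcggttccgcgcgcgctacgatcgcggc
Hmgcs1, chr13:119690101-119690350, plus strand: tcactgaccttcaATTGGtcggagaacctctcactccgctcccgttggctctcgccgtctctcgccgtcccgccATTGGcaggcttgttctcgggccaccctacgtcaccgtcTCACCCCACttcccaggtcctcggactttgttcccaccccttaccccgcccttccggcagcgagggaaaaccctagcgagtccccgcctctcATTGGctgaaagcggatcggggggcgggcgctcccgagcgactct
Ebp, chrX:8193513-8193762, minus strand: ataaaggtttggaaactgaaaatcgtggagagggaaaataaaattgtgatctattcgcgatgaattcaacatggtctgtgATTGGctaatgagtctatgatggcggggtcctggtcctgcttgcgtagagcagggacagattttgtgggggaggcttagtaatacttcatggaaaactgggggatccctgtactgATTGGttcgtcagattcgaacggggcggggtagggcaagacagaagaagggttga
Nsdhl, chrX:72918271-72918520, plus strand: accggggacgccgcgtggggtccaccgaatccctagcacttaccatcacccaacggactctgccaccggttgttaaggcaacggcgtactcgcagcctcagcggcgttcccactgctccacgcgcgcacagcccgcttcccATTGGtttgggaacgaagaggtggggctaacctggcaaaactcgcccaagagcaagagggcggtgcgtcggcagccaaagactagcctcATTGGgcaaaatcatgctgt

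In these stretches the NF-Y motif occurred in every gene: once for Insig1, 3 times each for Fasn and Hmgcs1, and 2 times each for Ebp and Nsdhl. In Fasn 2 of the matches overlap, 1 on each strand. The SREBP site core occurred only in Hmgcs1, starting at position -137 from the RefSeq start, and the E-box only in Insig1, at -101. RefSeq windows of 250 bases before to 50 bases after a start were found for 25 of the 32 genes, in 33 windows. CCAAT was in 21 of these (63.6%), against 37.4% of all 32851 windows, and the SREBP site core was in 1 (3.03%), against 1.24%. The E-box was in 7 (21.2%), against 7.15%. The GC box of Sp1, GGGCGG, which can share letters with CCAAT on the other strand and is not capitalised above, was in 25 (75.8%), against 35.7%. Among genes with a window, CCAAT was found for 8 of 10 that rose and 6 of 6 that fell, so it did not separate the directions. The 32851 windows were not limited to genes expressed in these cells, so the shares are not matched for expression. These matches describe letters in a window and not binding.

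Levels are given as FPKM (fragments scaled to transcript length and library size), which can be compared between genes. Differences are log2 fold changes of DN NK over cNK from edgeR's quasi-likelihood test on the deposited estimated counts, with p-values adjusted over all rows tested and a threshold of 0.05. The libraries held 79798234 to 89526647 estimated counts. Rows needed at least 1 FPKM in at least 3 libraries, which 29 of the 32 genes met. Sqle, Lss and Tm7sf2 did not, and Soat1 met it through the cNK libraries alone. Soat1 is kept in the counts below, but its p-value is given as description only. Of the 29, 14 were higher in DN NK, 8 were lower and 7 did not pass. The 22 changed genes are 75.9% of those tested, while 61.7% of all 11690 tested rows passed, 30.8% higher and 30.9% lower. The groups did not overlap in FPKM for 23 of the 29, against 70.3% of all tested rows. The median log2 fold change was 0.25 over the 29 genes and -0.02 over all tested rows, and a change past the test of at least 2-fold was reached by 2 genes, Cyp51 and Scd1 (12.6% of all tested rows). Leaving out single libraries gave 11 to 16 genes higher and 6 to 8 lower.

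The NK markers Ncr1, Klrb1c, Eomes, Tbx21 and Nkg7 were abundant in every library, summing to 2358 to 2536 FPKM in cNK and 1027 to 1192 in DN NK. Markers of other cells differed with the same groups. The summed FPKM of 8 B cell markers was 0.925 to 1.27 in cNK and 28.5 to 43.3 in DN NK, and that of 8 T cell markers was 12.1 to 14.4 and 68.4 to 69.8. Most of the T cell sum in DN NK was Cd3d and Cd3g, at means of 38.5 and 17.3 FPKM (4.54 and 3.39 FPKM in cNK). Trac went from a mean of 5.24 to 7.58 FPKM and Cd4 from 0.0160 to 3.51 FPKM. Cd3e, Cd5, Cd6 and Cd8a had higher means in DN NK but stayed under 1 FPKM in every library. The 4 plasma cell markers summed to 21.9 to 23.5 and 39.2 to 45.9. Most of that sum was Xbp1 (1.70-fold higher, adjusted p = 1.76e-05), which other cells also express, while Jchain went from 0.322 to 0.598 FPKM in cNK to 3.78 to 6.77 FPKM in DN NK (log2 fold change 3.45, adjusted p = 0.000175). Sdc1 and Mzb1, under the filter, were at mean levels of 0.0720 and 0.105 FPKM in cNK and 0.393 and 0.711 FPKM in DN NK. The 6 markers of ILC2 and ILC3 summed to 14.2 to 16.5 and 22.6 to 24.9, and the 4 erythroid markers to 17.3 to 22.5 and 24.3 to 34.5. Monocyte and macrophage markers (10) lay at 6.82 to 8.17 and 6.30 to 7.20. The 5 dendritic cell markers found summed to 183.9 to 197 FPKM in cNK and 126.0 to 137.0 in DN NK, nearly all of it Itgax, which NK cells also express. Zbtb46, the other dendritic cell marker tested, went the other way, from a mean of 1.56 to 6.42 FPKM (4.27-fold higher, adjusted p = 0.000460), and Xcr1, under the filter, was at 0.0161 and 0.0781 FPKM. The 3 platelet markers stayed at or below 0.346 FPKM. The 2 neutrophil markers found, S100a8 and S100a9, were listed at 0 in cNK, and their sum reached 0.425 FPKM in DN NK. Klf1 and Pf4, also listed at 0 in cNK, averaged 0.0434 and 0.0114 FPKM in DN NK. Il22 was listed at 0 in all cNK libraries and at 3.10, 1.95 and 2.02 FPKM in DN NK (adjusted p = 1.74e-05). Both Il22 and Jchain met the filter through the DN NK libraries alone, so their p-values are given as description only. The part of such cells in the results below was not tested. In these bulk libraries a change in the number of cells of a type and a change in RNA per cell cannot be told apart.

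**Figure D1:**
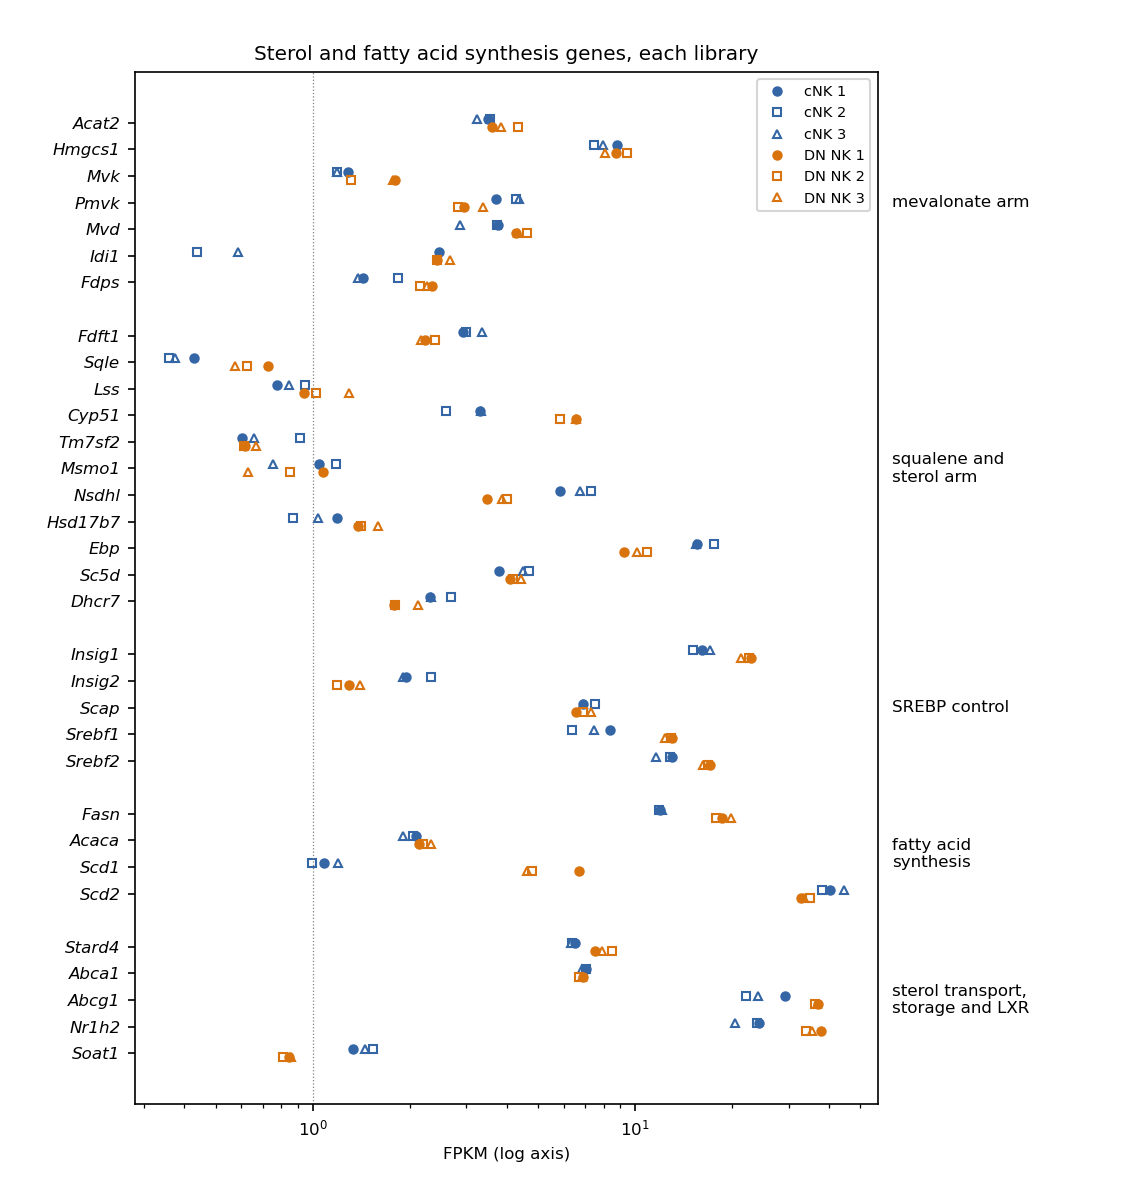
FPKM of all 32 genes on a log axis, ordered by role, with cNK libraries in blue and DN NK libraries in orange and 1 point per library. Most rows separate by group, Scd1 most widely, while Idi1 in cNK replicate 1 (2.46 FPKM) lies among the DN NK libraries.

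The mevalonate route was mixed. Of its 7 genes, 3 were higher in DN NK (Mvk, Mvd and Fdps), 1 was lower (Pmvk) and 3 did not pass (Acat2, Hmgcs1 and Idi1), with a median log2 fold change of 0.42. Over all tested rows 61.7% passed. Their summed level was 24.9, 22.5 and 21.6 FPKM in cNK replicates 1, 2 and 3 and 26.1, 27.1 and 26.4 FPKM in DN NK. The sums did not overlap.

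Acat2, which encodes the thiolase that joins the first acetyl-CoA units, stood at 3.50, 3.56 and 3.24 FPKM in cNK and at 3.59, 4.32 and 3.84 FPKM in DN NK. The groups did not overlap, but the log2 fold change of 0.25 (95% interval 0.01 to 0.49) had an adjusted p of 0.0639. With DESeq2 it passed, at 0.0441. Hmgcs1 was the most abundant gene of this route, at 8.79, 7.46 and 7.97 FPKM in cNK and 8.70, 9.45 and 8.07 FPKM in DN NK. These ranges overlap, and its log2 fold change was 0.18 (95% interval -0.03 to 0.38, adjusted p = 0.119). Without cNK replicate 1, the highest cNK library for this gene, it was 0.25 and passed (adjusted p = 0.0334).

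Mvk, the kinase that phosphorylates mevalonate, rose 1.39-fold, from 1.29, 1.19 and 1.19 FPKM to 1.81, 1.31 and 1.78 FPKM (log2 fold change 0.47, SE 0.16, adjusted p = 0.0288). DN NK replicate 2 lay close to the cNK libraries. This call was lost without cNK replicate 2 or 3 or without DN NK replicate 1 or 3 (adjusted p = 0.0701, 0.0733, 0.102 and 0.0896), with upper quartile scaling (0.0580), with no filter (0.0747), with edgeR's default filter (0.0561) and with limma (0.0572 and 0.0593). Pmvk encodes the next kinase and was the only gene of the route to fall, from 3.70, 4.26 and 4.36 FPKM to 2.95, 2.82 and 3.38 FPKM (log2 fold change -0.37, SE 0.12, adjusted p = 0.0236). Without cNK replicate 2 or 3 or DN NK replicate 1 or 2 it did not pass (adjusted p = 0.0584, 0.0705, 0.0587 and 0.0758).

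Mvd, the decarboxylase that yields isopentenyl diphosphate, rose 1.33-fold, from 3.75, 3.73 and 2.87 FPKM to 4.27, 4.64 and 4.35 FPKM (adjusted p = 0.0225). Replicate 3 was the low cNK library, and without it the adjusted p was 0.0518. The call was also lost without DN NK replicate 1 or 2 (0.0502 and 0.0747), with upper quartile scaling (0.0533) and with no filter (0.0593). Fdps, which encodes farnesyl diphosphate synthase, had the smallest p of the route. It stood at 1.44, 1.85 and 1.38 FPKM in cNK and 2.35, 2.15 and 2.26 FPKM in DN NK, 1.51-fold higher (log2 difference 0.59, SE 0.13, adjusted p = 0.00384). Of its exonic bases 26.7% are shared with the gene model Gm43738 on the same strand, which was at 0.0683 FPKM in cNK and 0.0211 in DN NK.

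Idi1, the isomerase that makes dimethylallyl diphosphate, gave the widest interval of all 32 genes. In cNK it was at 2.46 FPKM in replicate 1 but 0.437 and 0.585 FPKM in replicates 2 and 3. In DN NK it was at 2.42, 2.44 and 2.67 FPKM. The single high cNK library reaches the DN NK level, and the log2 fold change of 1.16 had a 95% interval of -0.79 to 3.11 (adjusted p = 0.237). Without cNK replicate 1 the log2 fold change was 2.36 and the adjusted p 1.81e-05. Its GRCm38 span is chromosome 13, 8885501 to 8892451, plus strand, and 9.21% of its exonic bases are shared with the antisense model Gm48574, at 0.0272 FPKM in cNK and 0.0292 in DN NK.

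The route from squalene to cholesterol changed in both directions. Of 11 genes, 8 were tested, of which 2 were higher in DN NK (Cyp51 and Hsd17b7), 4 were lower (Fdft1, Nsdhl, Ebp and Dhcr7) and 2 did not pass (Msmo1 and Sc5d). The median log2 fold change was -0.23. Over all tested rows 61.7% passed. The summed FPKM of the 11 genes was 37.8, 42.1 and 39.4 in cNK and 32.2, 33.6 and 34.0 in DN NK, so it was lower where the mevalonate sum was higher. The mean of the sum went from 39.7 to 33.3 FPKM, a net of changes in both directions. Ebp fell most in FPKM, from a mean of 16.2 to 10.1, and Nsdhl fell from 6.64 to 3.78 FPKM. Cyp51 rose from 3.07 to 6.33 FPKM. Over the 18 enzymes of both routes the sums were close, at 61.0 to 64.6 FPKM in cNK and 58.2 to 60.8 FPKM in DN NK, and just failed to overlap.

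Fdft1 encodes squalene synthase, the first step committed to sterols, and fell from 2.92, 2.99 and 3.35 FPKM to 2.23, 2.39 and 2.16 FPKM (log2 fold change -0.39, SE 0.09, adjusted p = 0.00690). Its exons share 18.3% of their bases with Ctsb on the opposite strand, at 18.4 FPKM in cNK and 18.3 in DN NK, and TruSeq v2 libraries carry no strand information, so fragments from that stretch could belong to either gene. Sqle, the squalene epoxidase gene, lay under the filter in every library, at 0.428, 0.358 and 0.375 FPKM in cNK and 0.727, 0.624 and 0.572 FPKM in DN NK. The groups did not overlap, and in the fit with no filter, where 31.3% of rows passed, it was higher (log2 fold change 0.73, SE 0.17, adjusted p = 0.00558). Lss, which encodes lanosterol synthase, was at 0.773 to 0.946 FPKM in cNK and 0.938 to 1.30 FPKM in DN NK, and its log2 fold change of 0.34 in that fit did not pass (adjusted p = 0.0578).

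Cyp51, the lanosterol demethylase, had the largest log2 fold change among the 10 of the 18 sterol synthesis enzymes that passed the test. It stood at 3.30, 2.59 and 3.33 FPKM in cNK and at 6.55, 5.87 and 6.58 FPKM in DN NK. All DN NK libraries exceeded all cNK libraries, by 2.15-fold on the fitted scale (log2 fold change 1.10, SE 0.11, adjusted p = 5.63e-05). Among the 18 enzymes it moved from rank 9 by mean FPKM in cNK to rank 3 in DN NK. Its GRCm38 span is chromosome 5, 4081145 to 4104746, minus strand, and 3.76% of its exonic bases are shared with Akap9 on the other strand, at 4.47 and 4.75 FPKM. Tm7sf2, a sterol reductase that acts after CYP51, was at 0.603, 0.914 and 0.658 FPKM in cNK and 0.618, 0.614 and 0.668 FPKM in DN NK, with no difference past the test (with no filter, adjusted p = 0.479). Of its exonic bases 12.1% are shared with Vps51 on the same strand, which was at 6.33 FPKM in cNK and 5.06 in DN NK, so its own value is uncertain. Msmo1, the methylsterol oxidase, spread widely in both groups, at 1.04, 1.18 and 0.754 FPKM against 1.08, 0.850 and 0.630 FPKM (log2 fold change -0.16, 95% interval -0.72 to 0.41).

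Nsdhl and Ebp, both on the X chromosome, fell. Nsdhl, which encodes a sterol dehydrogenase that works with MSMO1, was at 5.86, 7.29 and 6.76 FPKM in cNK and 3.47, 3.999 and 3.86 FPKM in DN NK, 1.68-fold lower (adjusted p = 0.000232). Ebp, the sterol isomerase gene, was the most abundant of the 18 enzymes in both groups, at 15.6, 17.6 and 15.4 FPKM in cNK and 9.25, 10.9 and 10.1 FPKM in DN NK. It was 1.54-fold lower (log2 fold change -0.62, SE 0.08, adjusted p = 0.000197), and neither gene's groups overlapped. Within each library the ratio of Cyp51 to Ebp FPKM was 0.212, 0.147 and 0.216 in cNK and 0.709, 0.540 and 0.649 in DN NK. Dhcr7, the final reductase to cholesterol, was lower too, at 2.32, 2.68 and 2.34 FPKM against 1.79, 1.80 and 2.12 FPKM (log2 fold change -0.30, SE 0.10, adjusted p = 0.0290). That call was lost without cNK replicate 2 or DN NK replicate 1 or 2 (adjusted p = 0.101, 0.0730 and 0.0777).

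Hsd17b7, a ketoreductase that partners NSDHL in demethylation, went the other way. It was at 1.19, 0.867 and 1.04 FPKM in cNK and 1.38, 1.41 and 1.60 FPKM in DN NK, 1.47-fold higher (adjusted p = 0.00868). Sc5d, the desaturase before DHCR7, was at 3.78, 4.68 and 4.50 FPKM against 4.11, 4.17 and 4.44 FPKM. The DN NK values lay within the cNK range, and its log2 fold change was 0.03 (95% interval -0.16 to 0.23).

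**Figure D2:**
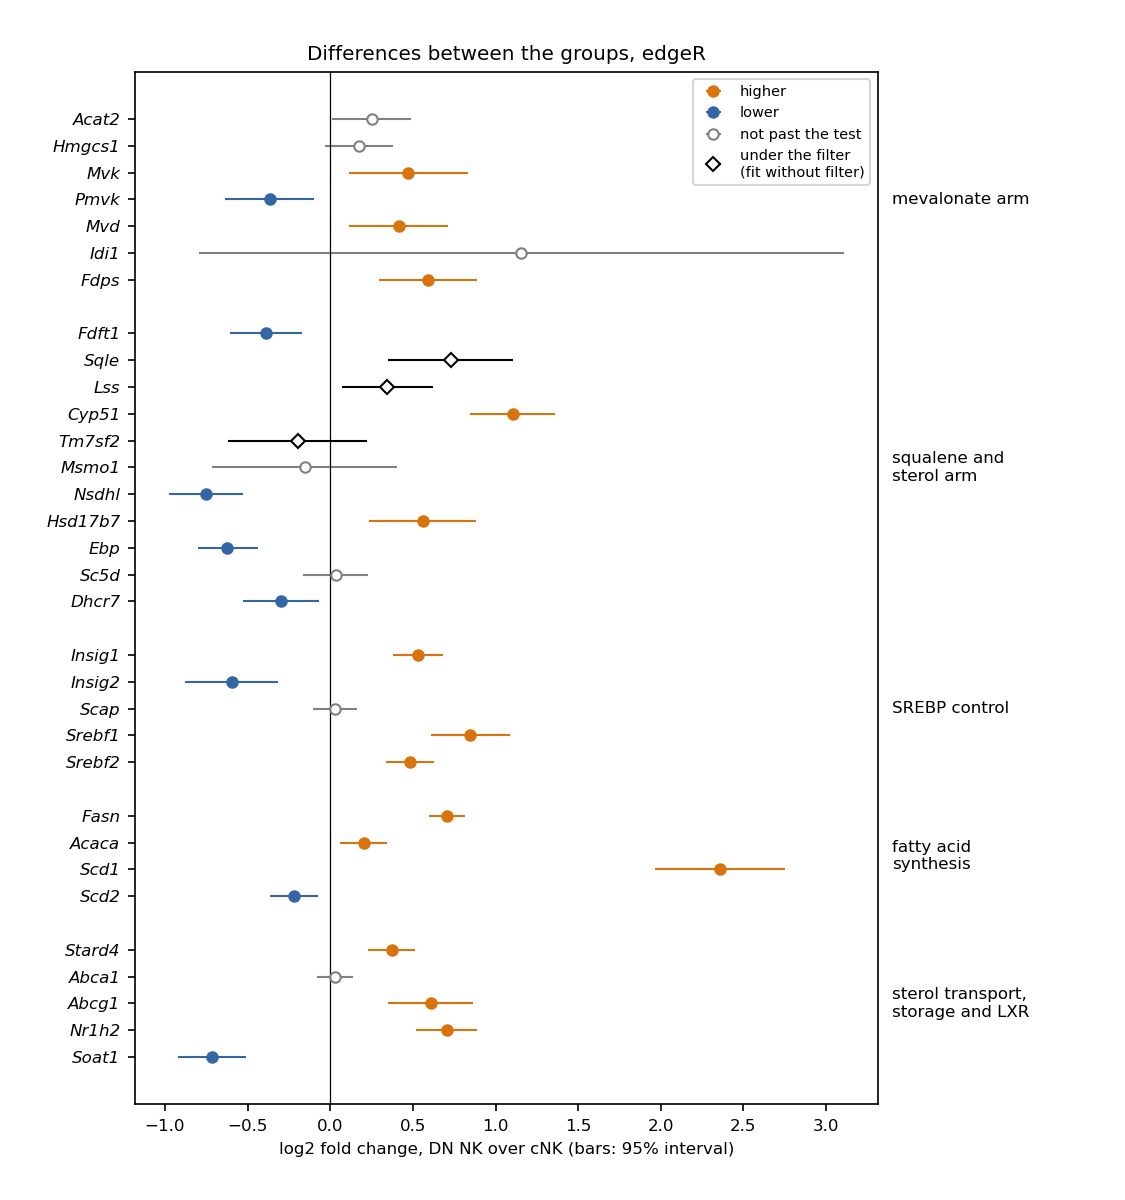
Log2 fold change of DN NK over cNK for all 32 genes with 95% intervals from edgeR, by role. Filled points passed an adjusted p of 0.05, open circles did not, and open diamonds are the 3 genes under the filter, taken from the fit with no filter. Scd1 (2.36) and Cyp51 (1.10) lie farthest to the right among filled points, and Nsdhl (-0.75) and Soat1 (-0.72) farthest to the left. Soat1 met the filter through the cNK libraries alone.

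Genes of the SREBP switch itself changed in 4 of 5 cases, while 61.7% of all tested rows passed. Srebf1, Srebf2 and Insig1 were higher in DN NK, Insig2 was lower, and Scap did not pass. Srebf1 rose 1.80-fold, from 8.38, 6.38 and 7.44 FPKM to 13.1, 12.9 and 12.4 FPKM (log2 fold change 0.85, SE 0.10, adjusted p = 0.000204). This gene row sums transcripts from more than one promoter, so the isoforms known as SREBP-1a and SREBP-1c are not separated. Srebf2 rose 1.40-fold, from 13.1, 12.8 and 11.6 FPKM to 17.1, 16.9 and 16.2 FPKM (adjusted p = 0.000241). It was the more abundant of the pair in every library, and its ratio to Srebf1 was 1.56, 2.01 and 1.56 in cNK and 1.31 in all 3 DN NK libraries.

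The INSIG genes, whose products retain SCAP with its SREBP cargo, moved apart. Insig1, which is itself a known SREBP target, stood at 16.1, 15.1 and 17.1 FPKM in cNK and at 23.0, 22.6 and 21.3 FPKM in DN NK, 1.44-fold higher (log2 difference 0.53, SE 0.07, adjusted p = 0.000182). Insig2, known for control that does not depend on SREBP, stood at 1.95, 2.32 and 1.91 FPKM in cNK and at 1.30, 1.19 and 1.40 FPKM in DN NK, 1.51-fold lower (log2 difference -0.60, SE 0.12, adjusted p = 0.00296). Neither gene's groups overlapped. The ratio of Insig1 to Insig2 FPKM was 8.28, 6.49 and 8.98 in cNK and 17.7, 19.0 and 15.2 in DN NK. Scap was at 6.88, 7.50 and 6.90 FPKM against 6.56, 6.88 and 7.33 FPKM, with a log2 fold change of 0.03 (95% interval -0.11 to 0.16).

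All 4 genes of fatty acid synthesis and desaturation changed, 3 upward and 1 downward, against 61.7% of all tested rows. Fasn, fatty acid synthase, had the smallest adjusted p among the 32 genes, 5.96e-06. Its level was 11.9, 11.9 and 12.2 FPKM in cNK and 18.7, 17.8 and 19.8 FPKM in DN NK, 1.63-fold higher. Acaca, the acetyl-CoA carboxylase that supplies FASN with malonyl-CoA, differed little, at 2.09, 2.05 and 1.90 FPKM against 2.14, 2.20 and 2.32 FPKM (log2 fold change 0.20, SE 0.06, adjusted p = 0.0200). It lost its call without cNK replicate 3 (adjusted p = 0.0690) or DN NK replicate 3 (0.0677), with upper quartile scaling (0.129), with other filters (0.151 with none and 0.0874 with edgeR's default) and with limma (0.201 and 0.207). The ratio of Fasn to Acaca FPKM was 5.72 to 6.40 in cNK and 8.11 to 8.74 in DN NK.

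The stearoyl-CoA desaturase genes Scd1 and Scd2, whose enzymes introduce the double bond of oleate, went in opposite directions. Scd1 stood at 1.08, 0.997 and 1.20 FPKM in cNK and at 6.71, 4.81 and 4.62 FPKM in DN NK. This was the largest change among the 29 tested genes, 5.14-fold (log2 fold change 2.36, SE 0.17, adjusted p = 1.47e-05). DN NK replicate 1 was the highest. The summed B cell markers were highest in the same library (43.3, 33.7 and 28.5 FPKM in DN NK replicates 1, 2 and 3), and their part was not tested. Scd2 was the most abundant of all 32 genes in cNK, at 40.4, 37.9 and 44.4 FPKM, and was at 32.8, 34.8 and 33.5 FPKM in DN NK, 1.16-fold lower (log2 fold change -0.22, SE 0.06, adjusted p = 0.0142).

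Scd1 thus made up 2.61, 2.56 and 2.62% of the summed FPKM of the pair in cNK and 17.0, 12.1 and 12.1% in DN NK. The pair's genes lie near each other on chromosome 19 of GRCm38, Scd2 at 44293676 to 44306864 (plus strand) and Scd1 at 44394451 to 44407709 (minus strand). They are close paralogs, so reads that fit both could have been split between them, and their single values are uncertain to that extent.

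**Figure D3:**
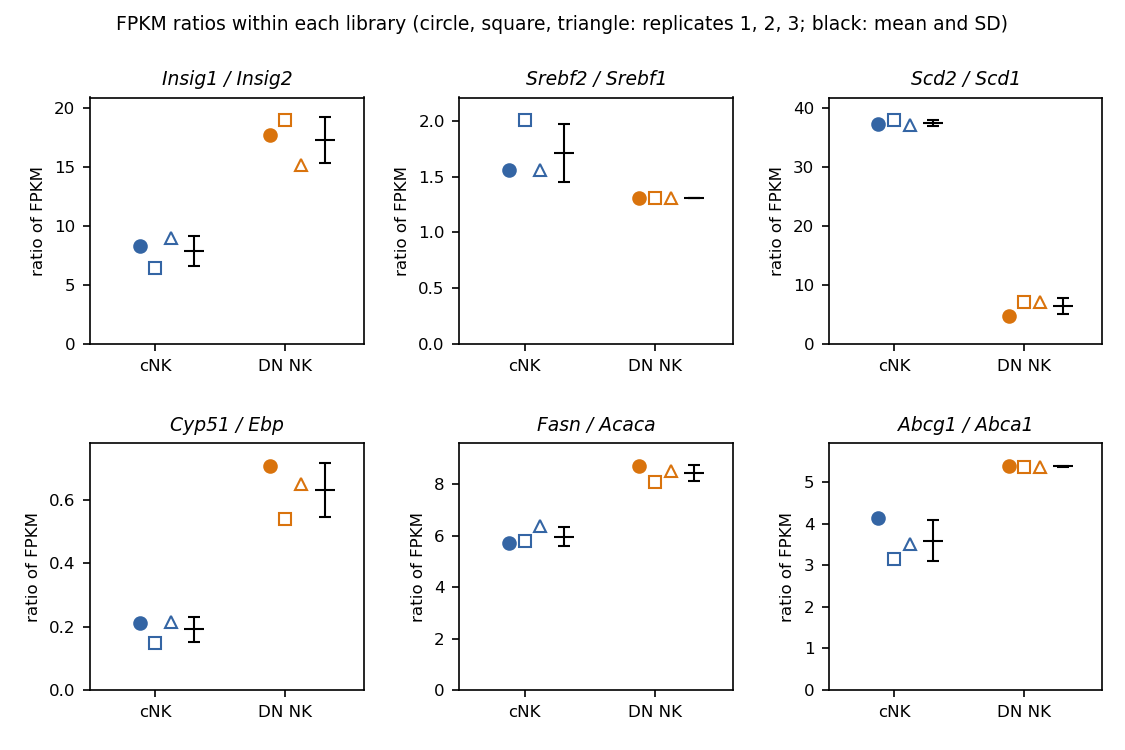
Ratio of FPKM between pairs of genes within each library, from 0 upward, with circle, square and triangle for replicates 1, 2 and 3 and black marks for mean and SD (n = 3). The groups are apart in each of the 6 pairs shown. These pairs were chosen with the results of their genes known, so this separation is not separate support. The widest gap is that of Scd2 to Scd1, at 37.1 to 38.0 in cNK and 4.89 to 7.25 in DN NK.

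Of the 5 genes of sterol movement, storage and LXR, 3 rose, 1 fell and 1 did not pass, while 61.7% of all tested rows passed. Nr1h2, which encodes LXR-beta, stood at 24.3, 24.0 and 20.4 FPKM in cNK and 37.8, 33.9 and 35.5 FPKM in DN NK, 1.63-fold higher (adjusted p = 0.000121). Abcg1, an exporter of sterols that LXR is known to induce, rose from 29.1, 22.1 and 24.0 FPKM to 37.1, 36.1 and 36.7 FPKM (log2 fold change 0.61, SE 0.11, adjusted p = 0.00229). The cNK libraries spread over several FPKM and the DN NK libraries lay within 1 FPKM. Abca1, the other classical LXR target among these 5 genes, was at 7.06, 7.02 and 6.84 FPKM against 6.87, 6.72 and 6.84 FPKM. Its log2 fold change was 0.03 (95% interval -0.08 to 0.14, adjusted p = 0.639). The ratio of Abcg1 to Abca1 FPKM was 3.14 to 4.13 in cNK and 5.37 to 5.40 in DN NK.

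Stard4, a carrier that moves cholesterol between membranes and a known SREBP target, rose 1.29-fold, from 6.52, 6.38 and 6.35 FPKM to 7.52, 8.47 and 7.87 FPKM (adjusted p = 0.000853). Soat1, which encodes an enzyme that esterifies cholesterol for storage, was 1.64-fold lower, from 1.33, 1.53 and 1.45 FPKM to 0.847, 0.807 and 0.859 FPKM (adjusted p = 0.000170). Soat1 met the filter through the cNK libraries alone, so this p-value is description only. Neither gene's groups overlapped.

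Genes known as SREBP targets were found in both directions. Insig1, Fasn, Scd1, Cyp51, Fdps and Stard4 were among those higher in DN NK and Fdft1, Dhcr7 and Scd2 among those lower. These are examples picked with their values known, not a full list of targets, so their numbers carry no weight. The deposited annotation gives another way to gather the rows. Of 19 rows it places in steroid biosynthesis, 11 were tested, with 3 higher, 6 lower and 2 not past (median log2 fold change -0.30). Of 21 rows in terpenoid backbone biosynthesis 18 were tested, with 7 higher, 5 lower and 6 not past (median 0.22). Of 51 rows in fatty acid metabolism 38 were tested, with 10 higher, 18 lower and 10 not past (median -0.11). Over all tested rows 30.8% were higher and 30.9% lower. The annotated rows include 12, 7 and 5 of the 32 genes, so they repeat part of the values above.

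A second list held 47 other genes of sterol and fatty acid metabolism, of which 46 were in the table and 37 were tested. Of these, 8 were higher in DN NK, 17 were lower and 12 did not pass, with a median log2 fold change of -0.16. The changed share was 67.6%, against 61.7% of all tested rows. Most lower genes stood among the lipogenic genes (1 higher and 5 lower of 10) and the genes of sterol uptake, transport, esters and oxysterols (1 higher and 6 lower of 11). Among 11 genes for SREBP processing, turnover and cofactors, 4 were higher and 3 lower. Of 5 genes for side steps of sterol and isoprenoid synthesis, 2 were higher and 3 lower.

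The 5 largest increases on that list included proteins of the SREBP switch. Rnf145, a ubiquitin ligase that responds to sterols and acts on SCAP, rose from 17.0, 15.2 and 16.3 FPKM to 30.9, 29.9 and 30.6 FPKM (log2 fold change 0.98, SE 0.06, adjusted p = 3.11e-06). Mbtps1 encodes the Golgi protease that makes the first cut in SREBP, and rose from 7.30, 7.15 and 6.91 FPKM to 11.3, 12.2 and 11.1 FPKM (log2 fold change 0.76). Mbtps2, which encodes the protease of the second cut, was lower (log2 fold change -0.46), and 28.4% of its exonic bases are shared with Yy2. Nfyc, a subunit of the NF-Y factor that binds CCAAT, rose 1.61-fold, while Nfyb, another subunit, was lower (log2 fold change -0.67). Mbtps2 and Nfyb were chosen as partners after their values were seen. Elovl5, a fatty acid elongase, rose 1.66-fold, and Soat2, the second cholesterol esterification gene, rose 1.34-fold, from 20.5, 20.5 and 22.0 FPKM to 26.3, 27.7 and 26.8 FPKM. Soat1 was lower and Soat2 higher in DN NK, with the p-value of Soat1 given as description only.

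The 5 largest decreases on that list were those of Acss2, Mid1ip1, Lpin1, Rxra and Acat1. Acss2, which makes acetyl-CoA from acetate and is a known SREBP target, fell from 8.21, 9.38 and 8.44 FPKM to 2.54, 2.82 and 2.79 FPKM (log2 fold change -1.62, SE 0.07, adjusted p = 4.82e-07). It was the only gene of the 37 that changed by at least 2-fold past the test. Lpin1, a phosphatidate phosphatase of glycerolipid synthesis, fell 1.94-fold, from 28.9 ± 0.902 to 14.3 ± 0.839 FPKM (SD, n = 3). Acat1, the mitochondrial thiolase gene, fell 1.77-fold, in contrast to its cytosolic relative Acat2, which did not pass.

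Mid1ip1, an activator of acetyl-CoA carboxylase, stood at 11.6, 11.7 and 21.5 FPKM in cNK and at 7.34, 7.16 and 7.17 FPKM in DN NK. Replicate 3 was far above the other cNK libraries, and without it the log2 fold change went from -0.98 to -0.63 (adjusted p = 0.000479). Without any single DN NK library it did not pass (adjusted p = 0.0688 to 0.0750). Rxra, a partner of LXR on DNA, fell from 11.6, 11.8 and 10.4 FPKM to 4.03, 5.69 and 8.25 FPKM (adjusted p = 0.0383). The DN NK libraries spread widely. The call was lost without any single cNK library or DN NK replicate 2 (adjusted p = 0.0741 to 0.111). It was also lost with no filter (0.0843) and with the replicate block (0.0843). Rxrb, its relative on that list, was at means of 15.95 FPKM in cNK and 15.07 FPKM in DN NK and did not pass (log2 fold change -0.02, adjusted p = 0.756). Rxrb was chosen after its values were seen.

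**Figure D4:**
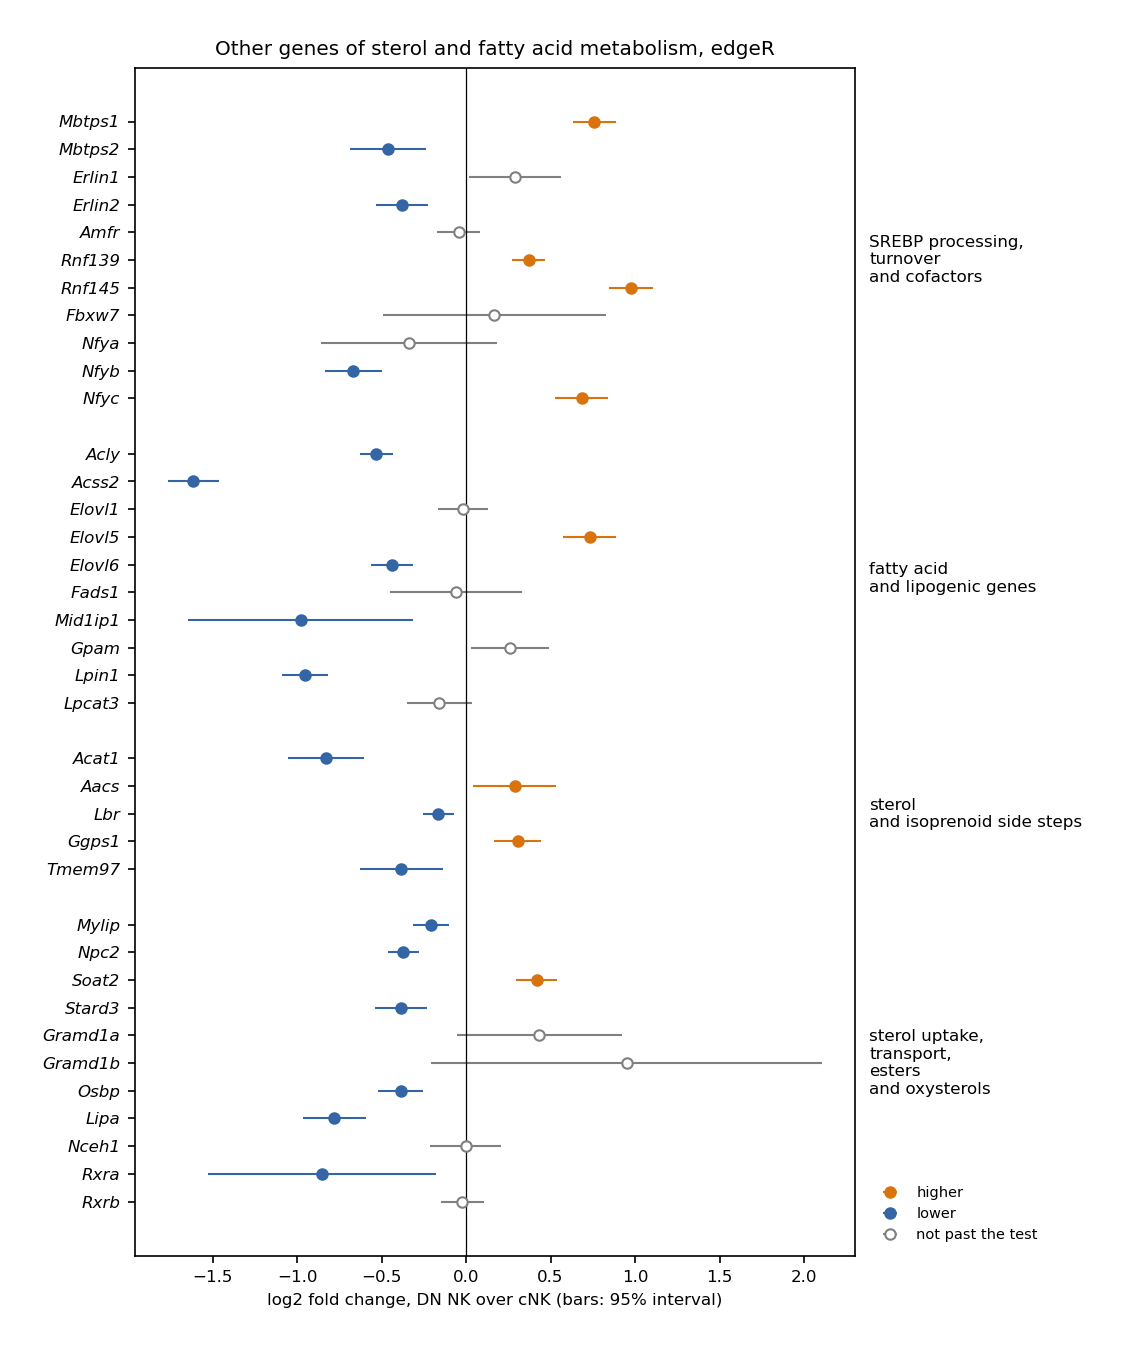
Log2 fold change of DN NK over cNK with 95% intervals from edgeR for the 37 tested genes of the second list, by role. Filled points passed an adjusted p of 0.05, 8 to the right of 0 and 17 to the left, with Acss2 (-1.62) farthest to the left and Rnf145 (0.98) farthest to the right among them.

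The coefficient of variation of FPKM had a median over the 32 genes of 8.95% in cNK and 5.55% in DN NK. It was largest for Idi1 in cNK (97.1%) and for Msmo1 in DN NK (26.3%). In cNK, replicates 1, 2 and 3 were the highest library for 13, 12 and 7 of the genes, and in DN NK for 11, 8 and 13, so no single library was the highest throughout.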

How the data were processed

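Total RNA was extracted with Trizol and poly(A) libraries were made with the TruSeq v2 kit and sequenced as read pairs, per the labels' protocols. The submitters' processing notes name HISAT, StringTie and edgeR and the build GRCm38 (mm10), without versions. The authors deposited 1 table with an FPKM value and a count per gene row and library. The deposited counts are estimated counts: among low values in rows with 1 transcript, 88.8 to 90.4% were FPKM multiplied by length and a constant and rounded up. By a best fit a read pair was worth about 3.7 of them. That fit was loose, as only 34.1 to 36.7% of these low values lay near a whole number of pairs. By this estimate the deposited counts overstate the number of independent fragments.

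The counts were tested with edgeR 4.0.16 in R 4.3.3 (TMM factors 0.972 to 1.03, robust quasi-likelihood test, 2-sided, group as the only term, Benjamini-Hochberg over 11690 rows). The tested rows held 99.3% of all counts. The biological coefficient of variation was 13.5%. The script was tested on simulated data. FPKM is not TMM-scaled, so small fold changes can differ from ratios of FPKM. DESeq2 1.42.0 and limma 3.58.1 served as alternatives. Shared exonic bases were computed from GENCODE M21. Promoters came from RefSeq (GRCm38.p6).

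The 32 genes and all lists, motifs and ratios were chosen with earlier results of these data known. All 32 genes are named, and of the second list the 5 largest changes past the test in each direction and a few partners chosen after their values were seen. Alternatives covered scaling, filters, tools, left-out libraries and a replicate block. No 2 replicates had equal counts in more than 0.71% of tested rows.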

Additional observations from a re-analysis of the deposited data

How the results depend on the processing

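Across 16 alternatives, 21 of the 29 tested genes kept their side of the threshold wherever they were tested, and 8 changed sides in at least 1 (Acat2, Hmgcs1, Mvk, Pmvk, Mvd, Idi1, Dhcr7 and Acaca). No gene past the test changed direction, while Abca1, Scap, Sc5d and Msmo1, which did not pass, lay on both sides of 0. With a mean of at least 5 FPKM, which tests 13 of the genes, 7 were higher and 3 lower, the median log2 fold change was 0.36, and 4614 rows passed among all genes, because fewer genes were tested. The median log2 fold change of the genes was 0.17 with upper quartile scaling, 0.15 with limma on log2(FPKM + 1) and 0.18 with limma on log2(FPKM + 0.1). Over all tested rows the median went from -0.02 to -0.10, -0.06 and -0.07 under the same settings, so with upper quartile scaling both medians moved by a like amount. With limma, the cause of the rest was not tested. Leaving out 1 library at a time gave 11 to 16 genes higher, 6 to 8 lower, a median of 0.20 to 0.29, 7 to 9 and 15 to 17 genes of the second list higher and lower, and 6597 to 7044 rows past the threshold. With the replicate block, 14 genes were higher and 8 lower, the same 22 genes as without it, and the second list gave 7 and 16. The numbers were not taken to pair the libraries: deviations of same-numbered libraries from their group means correlated at 0.05, 0.04 and 0.16 over genes, and not every library correlated best with its own number. By the loose fit described above, the estimated counts exceed the sequenced fragments. Dividing them by the worth of 1 read pair left 14 genes higher and 8 lower. Among the 32 genes the standard error of the log2 fold change was largest for Idi1 (0.74), followed by Msmo1 (0.24).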
